A study of Mus musculus with 16 samples.

Results

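Immunoglobulin light chain genes were described in the colon RNA of pups born by C-section (CSD) or vaginally (VD). The members were all non-control genes of the array whose description contains immunoglobulin kappa or immunoglobulin lambda, without descriptions that contain binding or like, and there were 102 of them among the 36711 genes tested. They stand for 100 gene segments and were read by 109 probes. There were 97 kappa variable genes, 1 kappa constant gene (Igkc), 2 lambda variable genes (Iglv1 and Iglv3) and 2 lambda constant genes (Iglc1 and Iglc3), and no joining segment. The words binding or like took out 3 genes, Rbpj, Rbpjl and Igll1.

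By the study's methods the mice were conventional SWISS (RjOrl:SWISS), an outbred stock, and the colon was sampled at weaning. The labels give neither strain nor age, and their treatment text also speaks of experiments with ex germ-free mice, which the methods describe as C3H, so strain, age and rearing rest on the methods alone. Each pup had 1 Agilent 1-colour array. CSD pups were taken by hysterectomy near term and raised by foster mothers that had delivered vaginally, whereas VD litters were exchanged between mothers, so that pups of both groups were reared by a mother not their own. The 8 CSD pups came from mothers 3 and 4, each with 2 females and 2 males. The 8 VD pups came from mother 5 (2 females and 3 males) and mother 6 (3 males). With 2 litters per delivery mode, delivery mode and litter can only be separated as far as the spread between 2 litters allows, and an outbred stock can carry different immunoglobulin alleles in different litters. Each of the 2 slides carried 4 CSD pups and 4 VD pups. Between 58.7% and 64.9% of the non-control spots of an array were well above background, and 0 were saturated. Values are log2 normalised intensities, and a log2 fold change is CSD minus VD as the fit gives it, with sex and litter taken into account, so that it can differ from the plain difference of the group means.

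An antibody is built of heavy chains and light chains, and each light chain is of the kappa or the lambda type. The kappa locus holds many variable segments, 1 of which is joined to a joining segment and spliced to the single constant region in a B cell, so that the constant region is read in all kappa-producing cells while each variable segment is read only in the cells that chose it. In the gut, light chain mRNA comes mostly from plasma cells of the lamina propria, which secrete IgA into the lumen, and these cells increase around weaning.

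The family of kappa variable segments named Igkv3 held most of the genes called below, and its probe sequences are shown because several of them read nearly the same stretch. All lie on chromosome 6 (mm9, plus strand). In the first 5, capitals mark the longest run of bases shared with the first Igkv3-10 probe, which is itself in capitals, and in the 2 after them no such run is marked.
Igkv3-10, chr6:70523153-70523212: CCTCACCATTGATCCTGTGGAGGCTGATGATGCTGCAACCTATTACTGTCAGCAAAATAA
Igkv3-12, chr6:70468774-70468833: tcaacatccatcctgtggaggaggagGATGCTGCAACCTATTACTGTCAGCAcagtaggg
Igkv3-4, chr6:70622312-70622371: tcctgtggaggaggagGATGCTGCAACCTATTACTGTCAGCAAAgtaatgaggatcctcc
Igkv3-9, chr6:70538685-70538744: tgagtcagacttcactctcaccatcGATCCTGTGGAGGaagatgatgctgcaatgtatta
Igkv3-2, chr6:70648995-70649054: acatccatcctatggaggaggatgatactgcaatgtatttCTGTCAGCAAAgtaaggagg
Igkv3-7, chr6:70557842-70557901: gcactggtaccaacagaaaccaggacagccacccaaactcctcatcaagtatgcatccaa
Igkv3-1, chr6:70653921-70653980: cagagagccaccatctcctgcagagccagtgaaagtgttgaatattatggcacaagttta
The shared run was 26 bases in Igkv3-12, 28 in Igkv3-4, 13 in Igkv3-9 and 11 in Igkv3-2. The probes of Igkv3-7 and Igkv3-1 lie in other stretches of their segments, each with 17 of 40 aligned bases in common with the Igkv3-10 probe. A second gene entry for Igkv3-10 was read by a probe that lies 11 bases further along and overlaps the first by 49 bases, so both entries report on 1 segment. The letters TATTACTGT, the codons of tyrosine, tyrosine and cysteine that close the last framework before the third complementarity-determining region, were present in 18 of the 104 variable probes (17.3%), on either strand, against 0.150% of all 56605 probes of the array.

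The constant regions are shown because Igkc is read in all kappa-producing cells, and the 2 lambda constant genes are shown beside it. The Igkc probe below lies on the plus strand and ends with the stop codon tag, and the 2 lambda probes lie on the minus strand of chromosome 16 (mm9).
Igkc, chr6:70676692-70676751: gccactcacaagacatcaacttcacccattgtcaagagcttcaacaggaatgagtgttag
Iglc1, chr16:19061905-19061964: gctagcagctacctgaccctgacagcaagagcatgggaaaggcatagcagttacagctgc
Iglc3, chr16:19065462-19065521: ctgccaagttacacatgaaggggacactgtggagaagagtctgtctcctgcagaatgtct
Over the 104 variable probes, 26 had at least 90% identity, over at least 40 aligned bases, to a probe of another light chain segment, and hybridisation of 1 segment's RNA to another segment's probe was not tested. The segments named here matched the RefSeq gene table of GRCm38.p6 in 100 of 100 cases, and 5 of the genes were pseudogene segments.

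Most light chain genes had a negative log2 fold change, and few of them passed the test. Of the 102 genes, 96 had a log2 fold change under 0, against 48.3% of all genes tested, and the median was -0.91 against 0.0029 over all genes. Adjusted over the whole array with limma, 11 genes (10.8%) passed the threshold as lower in CSD, against 0.548% of all genes, and 0 as higher, against 0.706% of all genes. At an unadjusted p under 0.05, 67 were lower (7.09% of all genes) and 0 were higher (7.37% of all genes). In 82 of the 102 genes both CSD litter means lay under both VD litter means, which held for 20.3% of all genes, and in 7 every CSD pup lay under every VD pup, which held for 0.204%. In bulk colon RNA, fewer antibody-producing cells and less light chain RNA per cell cannot be told apart.

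**Figure D1:**
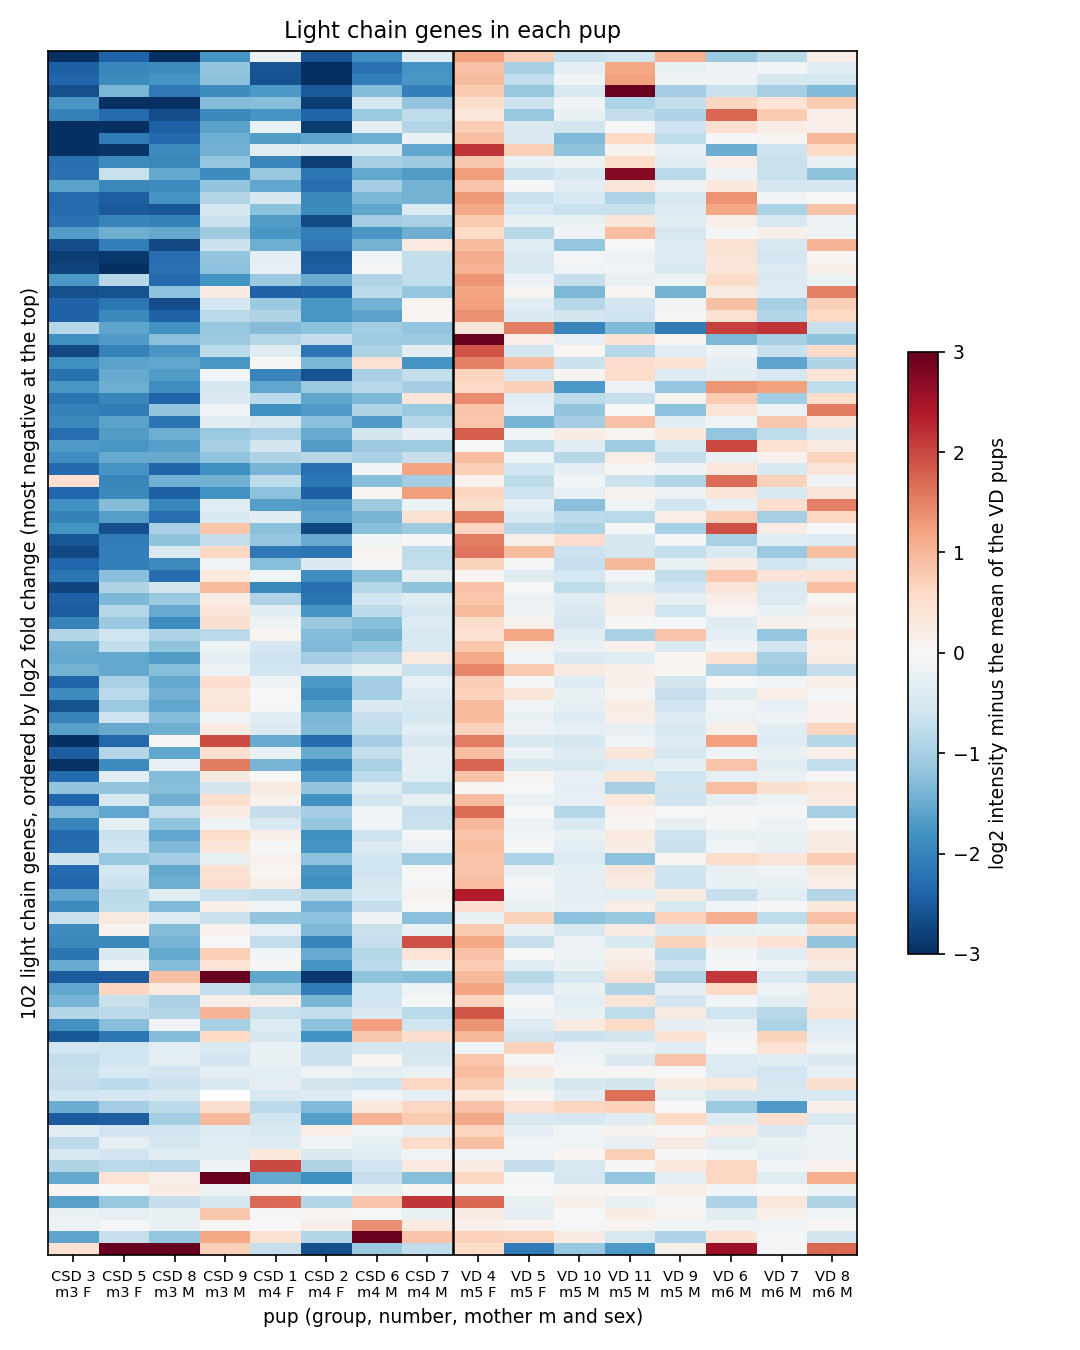
Value of each of the 102 light chain genes (rows) in each of the 16 pups (columns), as the difference from the mean of that gene over VD pups in log2 units, on a colour scale that ends at 3 in both directions. CSD pups 3, 2 and 8 were lowest over most genes and VD pup 4 was highest, with 50 genes lowest of all pups in CSD pup 3 and 59 highest of all pups in VD pup 4.

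All 102 genes passed the filter on dim probes, and 73 were well above background on all 16 arrays. On the 8 VD arrays 84 genes were well above background throughout, and on the 8 CSD arrays 73 were. Among the 73 genes measured on all arrays, 71 had a log2 fold change under 0, with a median of -0.95, and 8 were called. Of the 20601 genes of the whole array measured in this way, 9917 were under 0 and 178 (0.864%) were called lower. More VD than CSD arrays had a gene well above background for 25 genes and the reverse for 2. The share over all genes is not given here, so these counts describe the members only. The dimmest genes carried little information: Igkv4-56, a pseudogene segment, was not well above background on any CSD array and was so on 5 of 8 VD arrays, so no fold is given for it, and Igkv15-97 and Igkv13-54-1, also pseudogene segments, were not well above background on any VD array. Igkv2-112 lacked a value on 1 array, that of CSD pup 9.

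The constant region of kappa, Igkc, is part of every kappa chain. In CSD pups Igkc was 14.25 at the lowest, 15.69 at the median and 16.93 at the highest, and in VD pups 16.30, 16.64 and 17.54. Of the 8 CSD pups 6 lay under all VD pups, and CSD pup 9 lay above 7 of the 8 VD pups. The log2 fold change was -0.95 (SE 0.325), which gave an adjusted p of 0.166 in limma, while exact permutation of the pups (12870 assignments, two-sided, on the difference of group means) gave p = 0.00559 without regard to litter or sex. Over all settings tried, the log2 fold change of Igkc ranged from -1.16 to -0.35. Over litters, 2 against 2, the smallest two-sided p that an exact test can give is 0.333.

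Lambda chains make up the smaller part of mouse antibodies, and their 2 constant genes were spread differently over the pups. Iglc3 was 10.37, 11.74 and 12.73 (lowest, median and highest) in CSD pups and 12.07, 12.63 and 13.74 in VD pups, so that 5 of 8 CSD pups lay under all VD pups. Its log2 fold change was -1.04 (SE 0.381, limma adjusted p = 0.2). Iglc1 was 10.82, 11.43 and 11.77 in CSD pups against 10.54, 12.49 and 14.78 in VD pups. The CSD values of Iglc1 thus lay within a narrow band inside the VD range, in which 2 VD pups of mother 5 were the lowest of all pups and 2 VD pups of mother 6 the highest, and its log2 fold change of -1.43 (SE 0.617, limma adjusted p = 0.293) came with 5 VD pups above all CSD pups and the other 3 inside or below the CSD values. Over all settings tried, the log2 fold change ranged from -1.56 to -0.46 in Iglc3 and from -2.47 to -0.67 in Iglc1. Across the 16 pups the value of Iglc3 had a Pearson correlation of 0.77 with that of Igkc, and Iglc1 of 0.327, as a description that includes the group difference. The lambda variable gene Iglv1 had a log2 fold change of -1.31 (limma adjusted p = 0.153) and Iglv3 of -0.35 (limma adjusted p = 0.292).

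The Igkv3 family held most of the genes called. Its 8 genes, of 7 segments, all had a log2 fold change under 0, at a median of -1.58, and 7 of the 8 were called. The 4 Igkv3 genes with a probe at 90% identity or more to another segment's probe were both Igkv3-10 entries, Igkv3-12 and Igkv3-4. Igkv3-9, Igkv3-7 and Igkv3-1, whose probes were less alike, were called too.

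Igkv3-12 was 6.90, 7.60 and 8.15 (lowest, median and highest) in CSD pups and 8.67, 9.07 and 10.04 in VD pups. It had the smallest adjusted p of the members, at a log2 fold change of -1.60 (SE 0.227, limma adjusted p = 0.00451). Igkv3-9 was 6.25, 6.73 and 7.27 in CSD pups and 7.498, 8.24 and 9.26 in VD pups, giving -1.54 as log2 fold change (SE 0.22, limma adjusted p = 0.00472). In both genes the groups did not overlap, and the same was true of the next 3 genes, each of which encodes the variable domain of a kappa chain.

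The largest fold change in the family was that of Igkv3-10, at 6.66, 8.04 and 8.96 in CSD pups and 9.15, 9.95 and 11.29 in VD pups for the first entry. Its log2 fold change was -2.06 (SE 0.319, limma adjusted p = 0.00747), which is 4.17-fold higher in VD with sex in the fit. The second entry gave -2.03 (SE 0.33, limma adjusted p = 0.00931). Igkv3-4, read by 2 probes, was 7.10, 7.998 and 8.91 in CSD pups and 9.25, 9.74 and 10.71 in VD pups, with a log2 fold change of -1.67 (limma adjusted p = 0.00903). Igkv3-7 was 7.58, 8.42 and 9.62 in CSD pups and 9.79, 10.075 and 11.05 in VD pups, with a log2 fold change of -1.56 (limma adjusted p = 0.016).

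**Figure D2:**
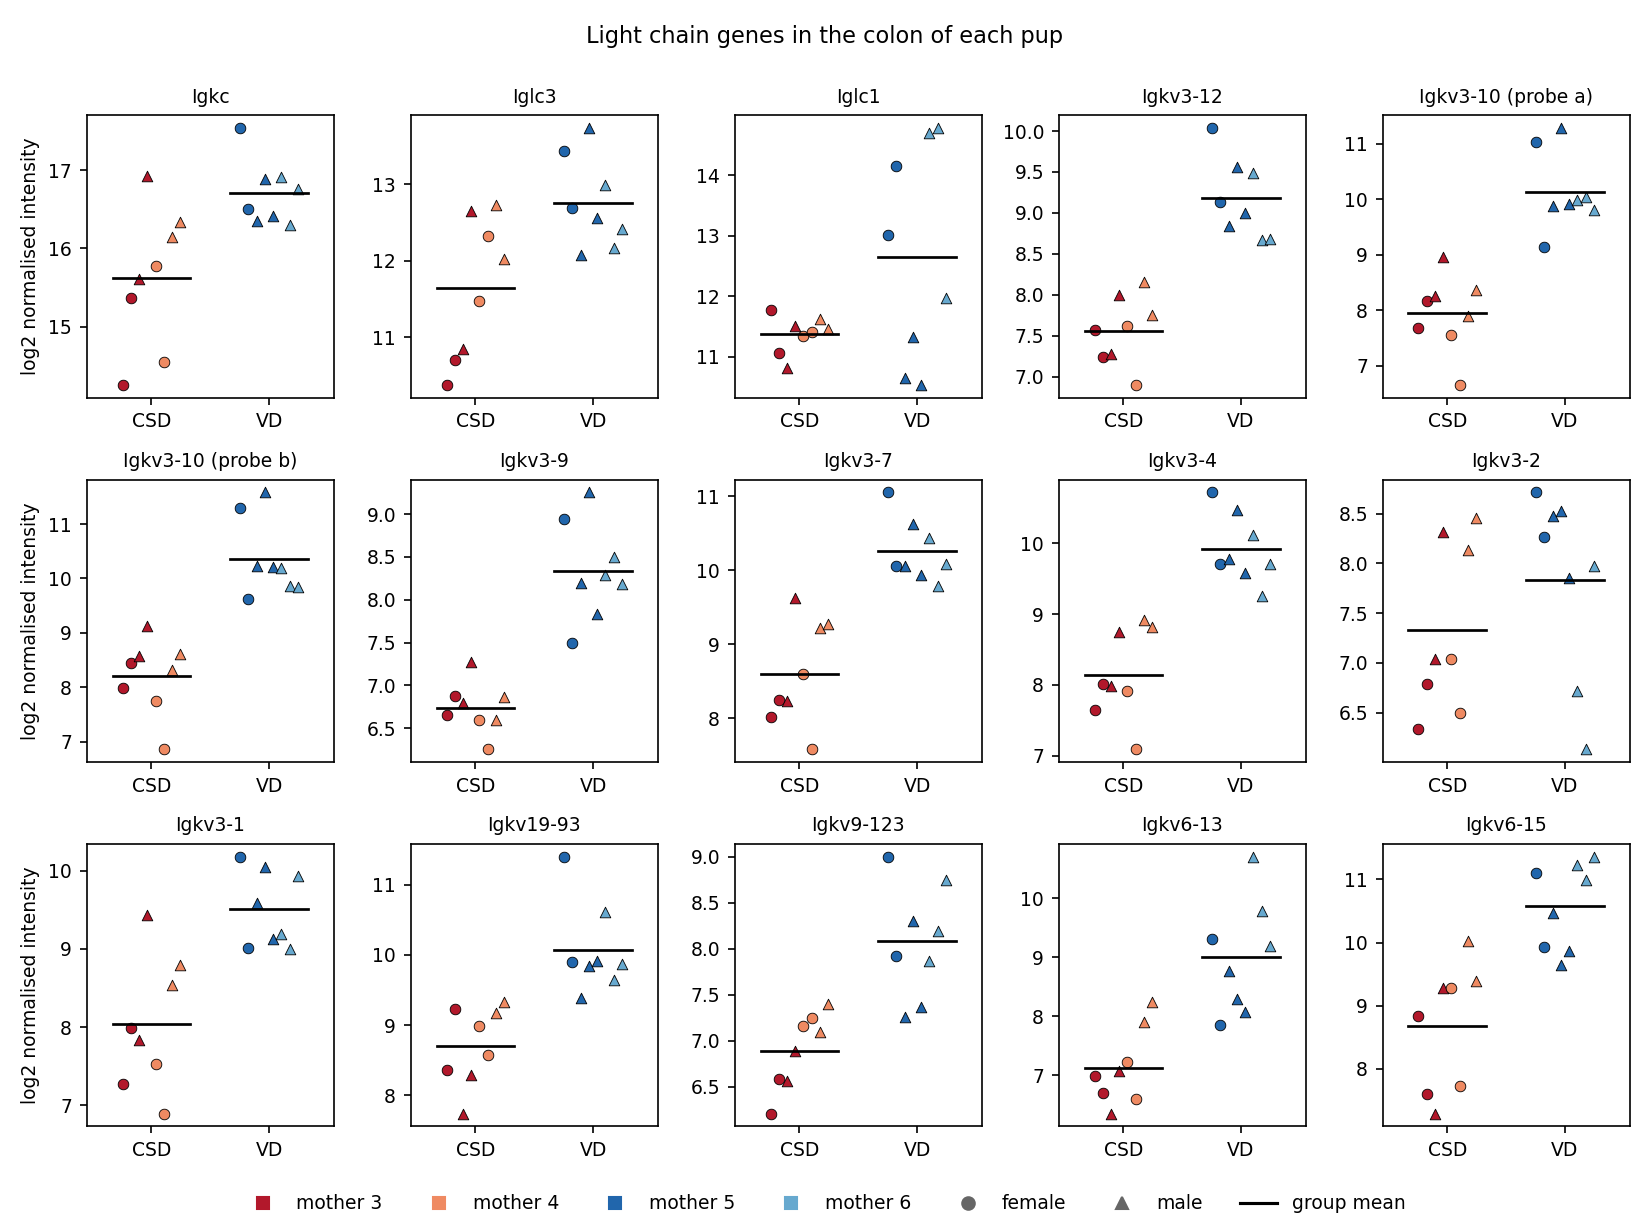
Log2 normalised intensity of 15 light chain genes in each pup, 8 CSD and 8 VD, with the mean of each group. The 2 panels of Igkv3-10 are its 2 gene entries. In Igkv3-12, Igkv3-9, Igkv3-10, Igkv3-4, Igkv3-7 and Igkv19-93 every CSD pup lay under every VD pup, whereas in Iglc1 the CSD pups lay inside the VD range.

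Igkv3-1 overlapped between the groups in 1 pup, since 7 of 8 CSD pups lay under all VD pups, and its log2 fold change was -1.31 (limma adjusted p = 0.0494). Igkv3-2 was the Igkv3 gene that was not called. It was 6.34, 7.04 and 8.46 in CSD pups and 6.13, 8.12 and 8.71 in VD pups, with a log2 fold change of -0.40 (limma adjusted p = 0.742), and 0 CSD pups lay under all VD pups. Among VD pups Igkv3-2 was higher in the litter of mother 5 (mean 8.36) than in that of mother 6 (mean 6.94).

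Of the other 89 kappa variable genes, 83 were lower, with a median of -0.88, and 4 were called. Igkv19-93 was 7.74, 8.78 and 9.33 in CSD pups and 9.39, 9.89 and 11.40 in VD pups, without overlap, at a log2 fold change of -1.47 (limma adjusted p = 0.0242). Igkv9-123 was 6.21, 6.99 and 7.40 in CSD pups and 7.26, 8.06 and 9.00 in VD pups, giving -1.22 as log2 fold change (limma adjusted p = 0.0355). The groups shared a narrow range in this gene and in the next 2.
Igkv6-15 was 7.29, 9.06 and 10.02 in CSD pups and 9.64, 10.73 and 11.36 in VD pups, at a log2 fold change of -1.80 (limma adjusted p = 0.0481). Igkv6-13 was entered as 2 genes. The one read by 1 probe was 6.35, 7.02 and 8.23 in CSD pups and 7.85, 8.98 and 10.71 in VD pups and was called, at -1.75 (limma adjusted p = 0.0397), whereas the one read by 2 probes was not, at -1.15 (limma adjusted p = 0.272).

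How many genes were called depended on single pups and litters. With each pup left out in turn, the number called lower ranged from 6 to 12. The lowest, 6, was found without VD pup 4, against 67 genes of the whole array. Without CSD pup 3, CSD pup 5 or CSD pup 8, 7 members were called, against 106, 120 and 154 genes. Igkv3-12, Igkv3-9, both Igkv3-10 entries, Igkv3-4 and Igkv3-7 were called in all 16 of these fits, Igkv19-93 in 14, Igkv9-123 in 7, Igkv6-13 in 6, and Igkv6-15 and Igkv3-1 in 3 each. The number of genes called lower on the whole array, 201 with all pups, also varied. Without the litter of mother 3, 4, 5 or 6, the members called numbered 4, 10, 3 and 23, against 96, 72, 127 and 1095 genes of the whole array. Without the VD females 1 member was called, against 12 genes, and with males alone or with litter means as the samples 0 members and 0 genes were. The median over the members stayed under 0 in each of the 44 settings tried. The litter correlation in the model was estimated at 0.0152; set to 0.1 or 0.2, it left 5 and 0 members called, against 37 and 4 genes of the whole array, at medians of -0.90 and -0.90. In data simulated without litter differences, the litter correlation was estimated below its true value and more calls were false than the threshold allows. This bears on the 11 calls, but whether 0.0152 is too low was not tested.

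The other families with most genes had medians closer to those of all members. Igkv4, the largest with 24 genes, had a log2 fold change under 0 in all 24, and 0 were called. Without Igkv4-56, which was not well above background in CSD, the other 23 lay between -1.04 and -0.56 with a median of -0.75. At an unadjusted p under 0.05 in limma, 15 of the 24 were lower. Their values followed those of Igkc across pups, with a median Pearson correlation of 0.895 over the 16 pups, and 13 of the 24 had a probe at 90% identity or more to another segment's probe. All 9 Igkv6 genes were under 0, with a median of -1.23, and 2 were called. Igkv1 had 10 of 11 genes under 0 (median -0.93), Igkv8 9 of 9 (median -0.74) and Igkv12 6 of 6 (median -1.41), with 0 called in each and 9, 3 and 5 genes at an unadjusted p under 0.05. The 2 Igkv10 genes were at -1.69 each and were not called (limma adjusted p = 0.062 and 0.145). No test compared the families with each other.

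**Figure D3:**
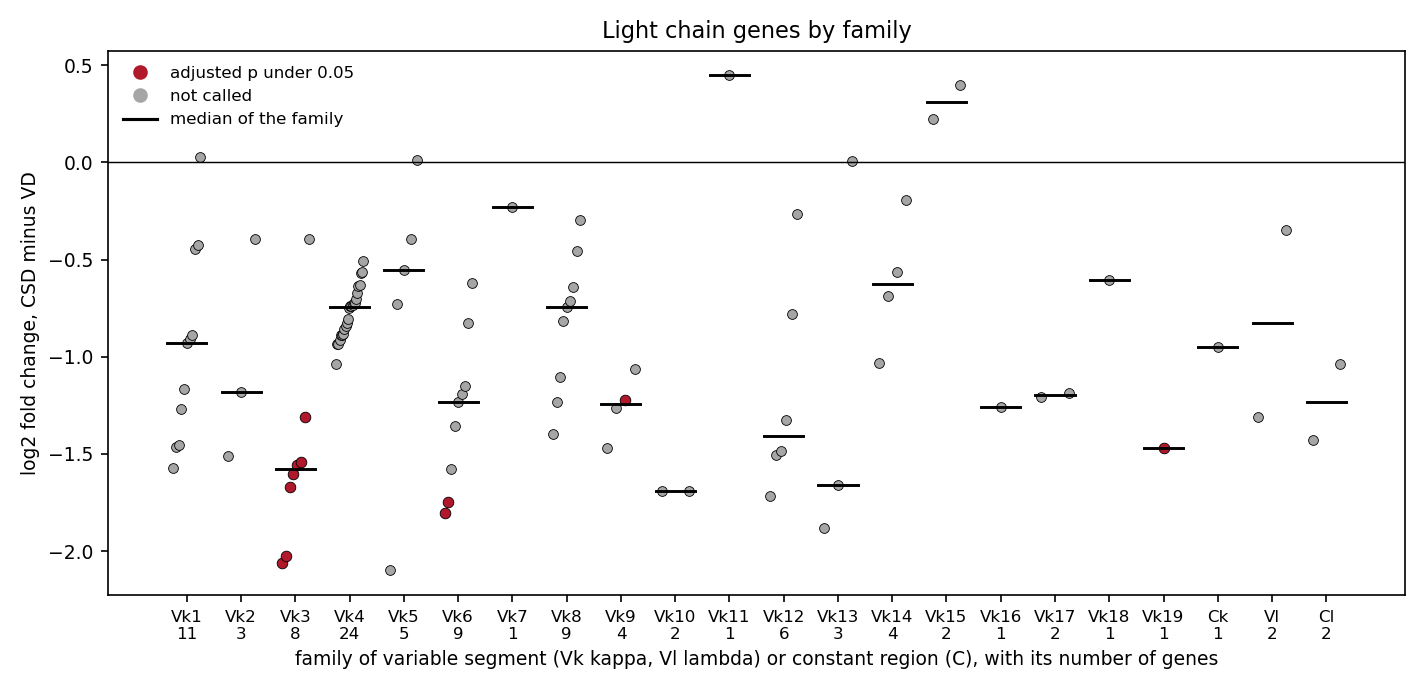
Log2 fold change, CSD minus VD, of each light chain gene by family, with red points for the 11 genes called and grey points for the others. The 8 Igkv3 genes reached from -2.06 to -0.40 and held 7 of the 11, and the Igkv4 genes without Igkv4-56, whose CSD level is not measured, lay between -1.04 and -0.56.

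The kappa variable segments lie in a row before the constant region. Over the 25 genes nearest to it, with probes 22.8 to 653 kb from the Igkc probe, the median log2 fold change was -1.23, all 25 were under 0 and 9 were called. The next 24, at 668 to 1263 kb, had a median of -0.80 with 0 called, and 15 at an unadjusted p under 0.05 in limma. The 24 at 1327 to 2185 kb had a median of -0.78 and the 24 at 2207 to 3171 kb of -1.17, with 1 called in each, Igkv19-93 and Igkv9-123. Since the Igkv3 genes all lie within 208 kb of the Igkc probe, place and family cannot be told apart for the nearest genes.

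**Figure D4:**
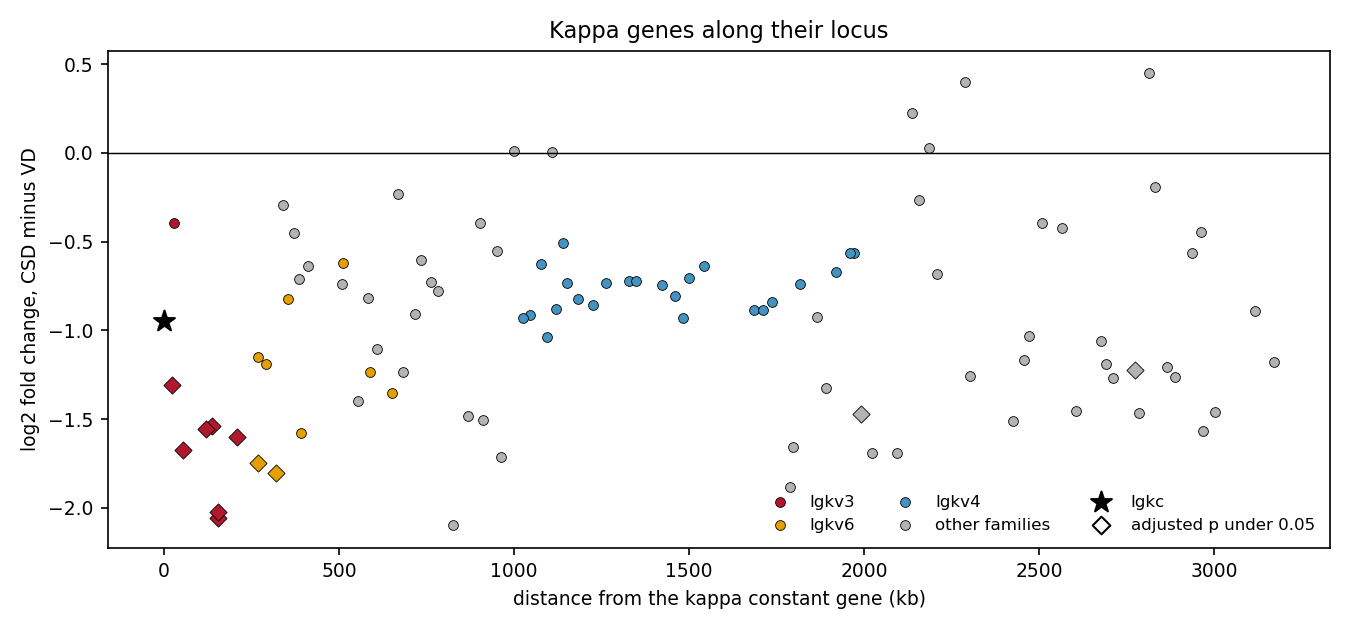
Log2 fold change, CSD minus VD, of the 97 kappa variable genes against the distance in kb of their probe from the Igkc probe. The 9 genes called among the nearest 25 are the 7 of Igkv3 and 2 of Igkv6, and the other 2 lie at 1990 kb (Igkv19-93) and 2772 kb (Igkv9-123).

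Because every kappa mRNA carries Igkc, each named gene was also taken relative to it, as its log2 value minus that of Igkc in the same pup. Most of these genes were named for the size of their CSD minus VD difference, so the values are a description with no test. They are plain differences of the group means without the sex term, and so cannot be read off the log2 fold changes of the fit. Relative to Igkc, CSD minus VD was -1.10 and -1.06 in the Igkv3-10 entries, -0.68 in Igkv3-4, -0.57 in Igkv3-7, -0.52 in Igkv3-12, -0.51 in Igkv3-9, -0.39 in Igkv3-1 and 0.58 in Igkv3-2. In the called genes of other families it was -0.81 in Igkv6-15, -0.78 in Igkv6-13, -0.28 in Igkv19-93 and -0.10 in Igkv9-123, and it was -0.93 in Igkv5-39 and -0.86 in Igkv13-84, named among the largest decreases. In the genes named among the largest increases it was 1.402 in Igkv11-125, 1.32 in Igkv15-103 and 1.07 in Igkv5-48. It was -0.03 in Iglc3 and -0.18 in Iglc1, and the other 5 named genes lay between -0.014 in Igkv6-17 and 0.30 in Igkv4-60. Single pups weighed on some of these values, which were not recomputed with a pup left out. That of Igkv13-84 depended on VD pup 11, at 13.50 before Igkc was taken off, with the next VD pup at 9.47. Its SD relative to Igkc was 1.93 among VD pups. That of Igkv19-93 depended on CSD pup 9, at 8.28 against 16.93 in Igkc, and its SD relative to Igkc was 0.96 among CSD pups.

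The 3 largest positive values among genes well above background on every array of a group were those of Igkv11-125 (0.45, limma adjusted p = 0.873), Igkv15-103 (0.40, limma adjusted p = 0.828) and Igkv5-48 (0.01, limma adjusted p = 0.996, with the sign turned under each other background correction tried). Igkv11-125 ranged from 5.94 to 12.11 in CSD pups and from 6.48 to 11.13 in VD pups, a spread far above its group difference. Its litter means were 10.50 and 7.29 in CSD (mothers 3 and 4) and 7.73 and 9.99 in VD (mothers 5 and 6). Igkv15-103 reached 12.20 in 1 CSD pup while VD pups lay between 7.57 and 9.18. The largest negative values beside those called were -2.10 in Igkv5-39 (limma adjusted p = 0.0732) and -1.88 in Igkv13-84 (limma adjusted p = 0.244). Igkv13-84 was 7.34 to 13.50 in VD pups, with VD pup 11 alone above 9.47, and 6.04 to 7.38 in CSD pups.

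The naming rule also took the 5 genes with the highest mean intensity, which depends on the probe as well as on the RNA: Igkc, Igkv4-71, Iglc3, Iglc1 and Igkv4-60. Igkv4-71 had a log2 fold change of -0.93 (limma adjusted p = 0.228) and Igkv4-60 of -0.74 (limma adjusted p = 0.423). The 5 with the largest SD between littermates were Igkv6-25 (1.63), Igkv13-84 (1.49), Igkv6-17 (1.39), Igkv11-125 (1.26) and Igkv8-28 (1.24). Their log2 fold changes were -0.62 in Igkv6-25, -0.83 in Igkv6-17 and -0.82 in Igkv8-28, none of them called (limma adjusted p = 0.757, 0.574 and 0.536). These 3 values depended on single pups: with each pup left out in turn they ranged from -1.27 to -0.10 in Igkv6-25, from -1.33 to -0.24 in Igkv6-17 and from -1.25 to -0.23 in Igkv8-28. Their signs turned with males only, to 0.38, 0.29 and 0.23, and without the litter of mother 5, to 0.067, 0.12 and 0.076.

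The values of light chain genes were widely spread among littermates. The median SD within litters was 0.764 for the 102 genes and 0.0991 over all genes, or 0.11 over all genes well above background on every array. The SD within CSD exceeded that within VD for 62 of 102 genes (median 0.845 against 0.642). Over the whole array this held for 20155 of 36711 genes (median 0.0994 against 0.0928). Taking, in each pup, the median over genes of the difference from the VD mean, CSD pups ranged from -1.98 (pup 3) to -0.34 (pup 9) and VD pups from -0.33 (pup 10) to 0.87 (pup 4). The groups did not overlap in this median, but CSD pup 9 and VD pup 10 nearly met.

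Of the 4 CSD pups with the lowest median, 3 were females. Igkc was 14.99 ± 0.707 (SD, n = 4) in CSD females, 16.26 ± 0.546 (SD, n = 4) in CSD males, 16.61 ± 0.284 (SD, n = 6) in VD males, and 16.51 and 17.54 in the 2 VD females, which are littermates. The CSD minus VD difference in females, less that in males, had a median of -1.20 over the members, and 27 of 102 genes had an unadjusted interaction p under 0.05 in limma, against 4.72% of all genes. With adjustment 0 members had an interaction, against 0.00272% of all genes, and the smallest adjusted p of a member was 0.116. Between females and males 0 members were called by limma (0.0599% of all genes), and 2 had an unadjusted p under 0.05 (6.45% of all genes), Igkv3-1 and Igkv5-43, which were named after their values were seen. With males alone the median log2 fold change of the members was -0.48.

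The median difference between litters of the same delivery mode was smaller than that between the delivery modes. Between the litters of mothers 3 and 4 the median difference was -0.37, with 0 genes called by limma (0.0872% of all genes) and 13 at an unadjusted p under 0.05 (7.68% of all genes). Between the litters of mothers 5 and 6 the median difference was 0.15, with 0 genes called (0.874% of all genes) and 17 at an unadjusted p under 0.05 (11.5% of all genes). Single genes differed more: Igkv11-125 was higher by 3.21 in the litter of mother 3 than in that of mother 4 (limma adjusted p = 0.231). Among VD pups Igkc was 16.39 ± 0.0924 (SD, n = 4) on slide 1 and 17.03 ± 0.349 (SD, n = 4) on slide 2, without overlap, while in CSD pups it was 15.50 ± 0.887 and 15.75 ± 1.02 (SD, n = 4 each). With slide as a term 11 members were called lower, against 219 genes of the whole array. Within slide 1 and within slide 2, where the mother was not in the model, 3 and 0 were, against 7 and 0 genes. The medians of the members there were -0.75 and -1.07. The part of slide in the difference was otherwise not tested.

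The genes whose values were most like those of Igkc across the 16 pups, out of all genes on the array, were themselves antibody genes or transcripts without a named product. Igha, the constant region of IgA, had a Pearson correlation of 0.995 with Igkc (0.997 within CSD and 0.976 within VD). It was followed by a long intergenic transcript of chromosome 9 (0.995), Jchain (0.99), which links IgA into dimers, Igh-VJ558 (0.984) and a long intergenic transcript of chromosome 17 (0.982). This Igha entry was at 17.24 ± 0.793 (SD, n = 8) in CSD against 18.15 ± 0.301 (SD, n = 8) in VD, with a log2 fold change of -0.77 and a limma adjusted p of 0.179. A second Igha entry of the array had a median of 6.85 in CSD and 7.53 in VD, with a log2 fold change of -0.43 (limma adjusted p = 0.3). Jchain had a log2 fold change of -0.95 (limma adjusted p = 0.239). With each pup left out in turn, the log2 fold change ranged from -1.18 to -0.60 in Jchain. It ranged from -0.94 to -0.54 in the first Igha entry and from -0.55 to -0.27 in the second. Over all settings tried, the values nearest 0 were -0.29 in Jchain, -0.29 in the first Igha entry and -0.18 in the second.

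Heavy chains and markers of the cells that hold antibody genes were read from lists. Of 12 heavy chain constant entries all 12 had a log2 fold change under 0, with a median of -0.80, and 2 were called: Ighg2b (-1.81, limma adjusted p = 0.0392) and Ighg1 (-0.82, limma adjusted p = 0.0442), both IgG subclasses. Of 42 other settings, the call of Ighg2b was lost in 26, among them 9 of the 16 with 1 pup left out, and that of Ighg1 in 29, among them 11 of the 16. Ighg1 was well above background on 5 of 8 CSD arrays, and Ighe on 0 of 16. The 99 heavy chain variable genes had 88 under 0, a median of -0.93 and 8 called lower. All 18 B cell genes were under 0, with a median of -0.51, and 0 were called by limma, while 13 had an unadjusted p under 0.05. The brightest B cell probe was that of Cd79b, and Cd79a, part of the B cell receptor, had a log2 fold change of -0.48 (limma adjusted p = 0.0993), Fcer2a of -0.57 (0.075) and Cd37 of -0.61 (0.091).

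The plasma cell list was split. Of 18 genes 11 were under 0, with a median of -0.11, 0 were called by limma, and 8 had an unadjusted p under 0.05, 7 lower and 1 higher. Its brightest probe was that of Jchain. Mzb1, a chaperone of antibody assembly, was at -0.87 (limma adjusted p = 0.162), Tnfrsf17, the survival receptor BCMA, at -0.57 (0.189), Irf4 at -0.37 (0.0809) and Tnfrsf13b at -0.44 (0.0806), while Sdc1, which is also made by epithelium, was at 0.00 (0.993) and Xbp1 at -0.01 (0.972). Of the 18 genes, 7 were above 0, and the highest stood at 0.21. Fkbp11 lay between 7.11 and 7.71 in CSD pups and between 6.95 and 7.37 in VD pups. Creld2 lay between 13.43 and 13.81 in CSD pups and between 13.31 and 13.56 in VD pups. Mzb1, Tnfrsf17, Xbp1, Fkbp11 and Creld2 were named after their values were seen. All 18 were well above background on all arrays. As the log2 of the summed intensities, the plasma cell list was 15.91, 16.25 and 16.67 (lowest, median and highest) in CSD pups and 16.31, 16.50 and 17.02 in VD pups, the B cell list 12.17, 12.87 and 13.78 against 12.96, 13.58 and 14.11, and the 102 light chain genes 15.53, 16.81 and 18.02 against 17.34, 17.80 and 18.70. Such a sum weighs the brightest genes most. In the plasma cell list Ssr4 lay between 13.97 and 14.19 over all pups, beside Jchain between 12.40 and 16.05. The highest CSD sum of the B cell list was that of CSD pup 7, where Cd79b stood at 12.91. All 3 sums overlapped between groups, and the part of cell numbers in the light chain result was not tested.

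Lymphoid follicles are the sites where B cells gather in the gut wall. Of 13 follicle genes 12 were under 0, with a median of -0.60, and Ccr6, a chemokine receptor of B cells, was called (-0.80, limma adjusted p = 0.0465), a call lost in 33 of 42 other settings and in 13 of the 16 of them that left out 1 pup. This list summed to 14.44, 14.90 and 15.09 in CSD pups and to 14.92, 15.26 and 15.62 in VD pups. All 12 T cell genes were under 0 (median -0.36), with 0 called by limma and 6 at an unadjusted p under 0.05, of which Cd2 stood at -0.77 (limma adjusted p = 0.162) and Cd28 at -0.34 (0.229). The part of follicle or T cell content in the light chain result was not tested.

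The machinery that makes and edits light chain genes was at background or had list medians near 0. Rag1, Rag2 and Igll1, needed for rearrangement or the surrogate light chain, were well above background on 0 of 16 arrays. The 16 genes of rearrangement and surrogate light chain had a median of -0.01 and 0 calls by limma, with 4 at an unadjusted p under 0.05, and Vpreb2 was at 0.40 (limma adjusted p = 0.0877) and Vpreb3 at -0.78 (0.149). Of 11 genes of hypermutation, class switch and germinal centre, 1 was called, Bcl6, higher in CSD at 0.41 (limma adjusted p = 0.0409), and the median was -0.08. The call of Bcl6 was lost in 28 of 42 other settings, among them 11 of the 16 with 1 pup left out. Of 17 genes of IgA transport and IgA-promoting signals 0 were called by limma and 6 had an unadjusted p under 0.05, with a median of -0.08, and Itgb7 (-0.37, limma adjusted p = 0.0509) and Ccr10 (-0.75, 0.0744), both used by IgA cells to enter the gut, had the smallest p. Pigr, the receptor that carries IgA across the epithelium, was at 0.02 (limma adjusted p = 0.966).

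The tissue label was checked against markers, and all 12 colon epithelium genes were well above background on every array. Their median was 0.14, with 3 under 0 and 0 called by limma; 2 had an unadjusted p under 0.05, Slc26a3 at 0.45 (limma adjusted p = 0.113) and Epcam at 0.17 (0.257). Of 7 small intestine genes, Apoa1, Apoa4, Gata4, Lct and Sis were well above background on 0 of 16 arrays and Fabp6 on all. Smooth muscle genes had a median of -0.10 over 7 genes (Acta2 -0.17 and Tagln -0.13) and enteric neuron and glia genes of 0.02 over 8 (Sox10 -0.16 and Uchl1 -0.22), with 0 called by limma and 0 at an unadjusted p under 0.05 in either list or in the small intestine list.

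**Figure D5:**
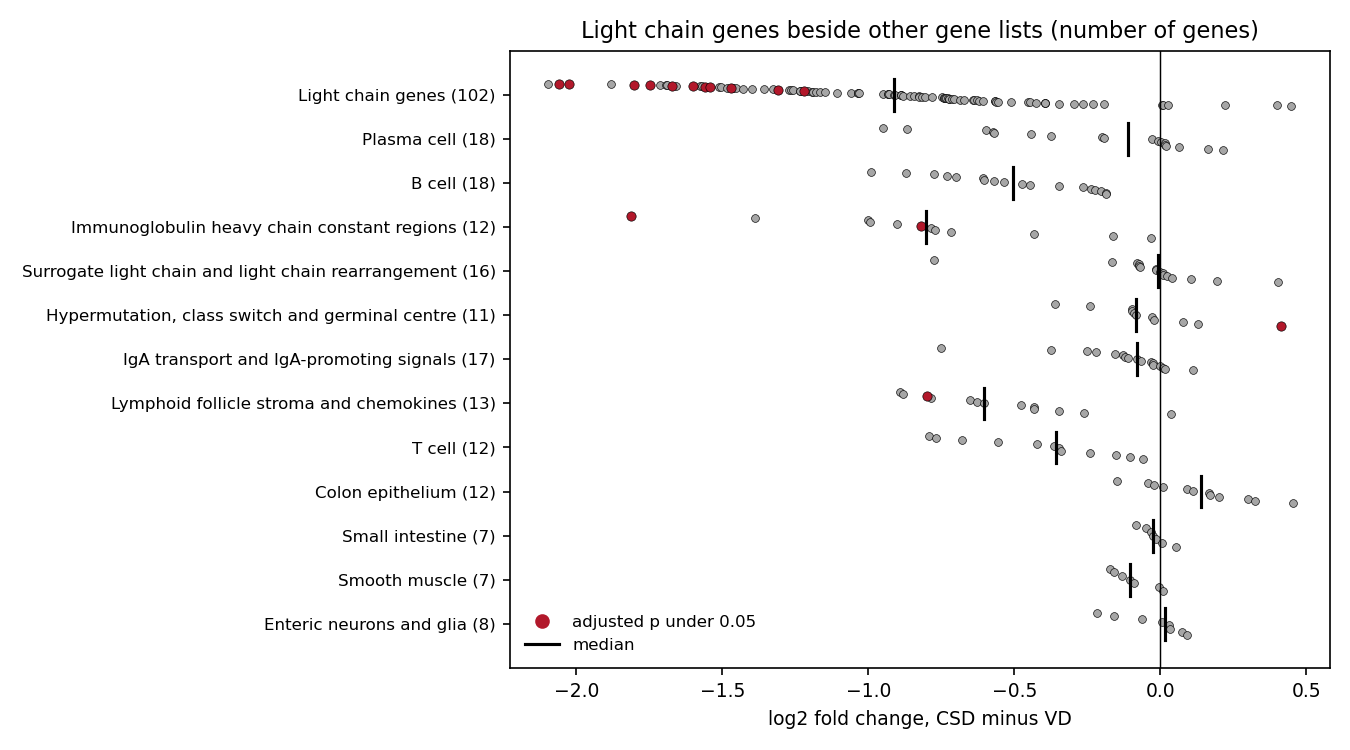
Log2 fold change, CSD minus VD, of every gene of the light chain members and of 12 lists, 1 point per gene, with the median of each list. The medians of the light chain genes (-0.91) and the heavy chain constant entries (-0.80) were lowest. Those of lymphoid follicle (-0.60), B cell (-0.51) and T cell genes (-0.36) were under 0 too. The plasma cell list was split, with 11 of 18 genes under 0 and a median of -0.11, and the epithelial list had a median of 0.14.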

How the data were processed

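Colon RNA of 16 pups was analysed, with delivery mode, mother, sex and pup number taken from the labels. For every array the authors deposited the scanner output, with a mean intensity, a local background and an intensity corrected by the scanner software per spot, and a matrix of log2 values that, per the labels and the study's methods, was background-corrected, quantile normalised, filtered and averaged per gene with limma 3.38; the matrix and the corrected intensity served as alternatives. The scanner marks (other values in the deposited files) gave spots well above background, saturated or outlying.

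Normexp correction (offset 50) of the mean intensity on all 62976 spots, log2 and quantile normalisation of the 59305 non-control spots without outliers were run in limma 3.58.1 under R 4.3.3. Probes above the 5% quantile of their array on at least 4 arrays (56366 of 56605) were averaged by gene name. limma was fitted to all 36711 genes with delivery mode and sex as fixed and mother as random effect (duplicateCorrelation, consensus correlation 0.0152), with Benjamini-Hochberg adjustment over all genes at 0.05. Within-litter contrasts and the interaction came from like fits. The fit was tested on simulated data without litter differences, where the litter correlation was estimated below its true value and more of the calls were false than the threshold allows. The number of arrays and litters limits the precision. Alternatives were other corrections, normalisations and filters, other models, 1 slide at a time, a block on pup number, and leaving out each pup or litter.

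The members and gene lists were chosen with earlier results of these data known. Named were all constant genes, all called members, the 5 largest increases and decreases among members well above background on every array of a group (3 increases met this), the 5 with the highest mean and the 5 with the largest SD within litters, from each list the called genes or else the 2 with the smallest p, Jchain, Igha, Sdc1 and Cd79a, and the 5 genes most like Igkc; other names were added after their values were seen. Probe sequences and positions (mm9) are those of the scanner output, and no genome of that build was used. Promoters and proteins of the members were not used here. Python 3.11.15 with matplotlib 3.10.9 drew the plots.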

Additional observations from a re-analysis of the deposited data

Results flagged for a closer look

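In 110 groups of 8 pups, 1 named gene or summary each, 5 had a pup far from the others, where chance alone gives about 1 in 20. Igkv13-84 was at 13.5 in VD pup 11, with the next VD pup at 9.47. The median over light chain genes of the difference from the VD mean was 0.871 in VD pup 4, with the next VD pup at 0.149. Among the other genes, Cd28 was at 8.17 in VD pup 6 (next 7.60), Uchl1 at 10.4 in VD pup 11 (next 9.88) and Sox10 at 7.74 in CSD pup 3 (next 8.07).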

How the results depend on the processing

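The median log2 fold change of the light chain genes kept its direction under each alternative, from -1.25 (intensity corrected by the scanner software) to -0.48 (males only), and 0 genes were called higher in CSD under any. Alternatives added after the data were seen were the litter correlation, the VD females, the same 10 pups, and members chosen by probe identity or brightness. Signal over background limits the 29 genes not well above background on all of them.

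In place of 11 genes called lower (201 on the whole array), there were 7 (59) with normexp offset 0, 7 with the scanner software's intensity after quantile normalisation (78) or minus the 75th percentile (83), 7 (85) in the deposited matrix, 20 (448) without sex in the model, 0 (0) with litter means, 0 (0) with males only, 3 (7) on slide 1, 0 (0) on slide 2, 5 (37) and 0 (4) with the litter correlation set to 0.1 and 0.2, 4 (96), 3 (127) and 23 (1095) without the litters of mothers 3, 5 and 6, 1 (12) without the VD females, and 5 of 76 among members with probes under 90% identity to other segments. Leaving out each pup gave 6 to 12 (67 to 270 on the whole array), with medians of -1.14 to -0.67. The replicate block on the 5 pup numbers that both groups share, over 10 pups, gave 0 genes (0) and the same pups without it 2 (17), at medians of -0.58 and -0.58. For pup numbers 5, 6, 7, 8 and 9, the deviations of same-numbered pups had correlations of 0.115, 0.215, 0.017, -0.0492 and 0.0614. The VD pup most like the CSD pup had the same number for 5 and 6, but not for 7, 8 and 9. These values do not settle whether the numbers mark pairs. With the block, sex could not be fitted. The sex, interaction and litter contrasts were not run with the block, on the same 10 pups, with litter means or without sex in the model, and the sex contrast not with males only. The interaction was not run without females in VD, the litter contrasts not without the mother in the model or without either of their own litters, and neither with the litter correlation set.

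Where no light chain gene was called at first, against 22 genes of the whole array for the sexes, 1 for the interaction, and 32 and 321 for the litter contrasts, the numbers were these. For the sexes 1 gene was called on slide 1 (10 on the whole array). For the interaction 1 was called with slide as a term (2), 3 on slide 2 (14), 1 without the litter of mother 6 (3), and 0 to 3 without single pups, with 3 without VD pup 5 (72) and 1 without VD pup 4 (127) or 8 (3). Between the litters of mothers 3 and 4, 2 were called on slide 1 (15). Between those of mothers 5 and 6, 1 was called with males only (204), 1 with slide as a term (375), 1 without the VD females (194), and 0 to 3 without single pups, with 3 without VD pup 4 (277) and 1 without CSD pup 9 (285).

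Signs turned in 10 named genes that were not called. Igkv11-125 became -0.72 on slide 2 and -1.03 and -0.94 without the litters of mothers 3 and 5, and ranged from -0.0187 to 0.78 without single pups. Igkv15-103 became -0.38 on slide 1 and -0.58 without the litter of mother 4, and ranged from -0.23 to 0.74 without single pups. Igkv5-48 became -0.0077 and -0.0188 with offsets 16 and 0, -0.0237 and -0.0392 with the scanner software's intensity (quantile normalised, and minus the 75th percentile), -0.0114 in the deposited matrix, -0.0221 without sex, -0.44 on slide 2, and -1.07 and -0.29 without the litters of mothers 4 and 6, and ranged from -0.41 to 0.46 without single pups. Igkv6-25 became 0.38 with males only and without the VD females, and 0.16 and 0.0669 without the litters of mothers 4 and 5. Igkv6-17 became 0.29 with males only and without the VD females and 0.12 without the litter of mother 5, and Igkv8-28 0.23 and 0.0764 likewise. Sdc1 became -0.00107 with outlier spots kept, -0.0141 with the brightest probe, -0.000244 without the mother, -0.00588 on slide 2, and -0.055 and -0.0806 without the litters of mothers 3 and 6, and ranged from -0.0263 to 0.0364 without single pups. Apoa1 became -0.0112 with the scanner software's intensity, Apoa4 0.0052 without the litter of mother 5 and Tagln 0.0137 on slide 2. Without single pups, Igkv4-60 ranged from -0.99 to -0.48, Igh-VJ558 from -0.47 to -0.24, Acta2 from -0.21 to -0.0882, Tagln from -0.18 to -0.0616 and Uchl1 from -0.25 to -0.13. The cause of these changes was not tested.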
